A study of Mus musculus with 2 samples.

Results

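The oocyte NLRP genes are a branch of the NOD-like receptor family that mouse eggs and early embryos express. The genes described here are Nlrp2, Nlrp4a, Nlrp4b, Nlrp4c, Nlrp4e, Nlrp4f, Nlrp9a, Nlrp9b, Nlrp9c and Nlrp14, 10 of the 36227 genes of the table and of the 18017 that had counts. They were chosen by symbol, matched by Ensembl identifier, as the reproductive NLRP genes without Nlrp5. The libraries came from ovulated eggs at metaphase II of ICR mice, an outbred stock, and each library pooled 9 oocytes, 3 from each of 3 mothers. All mothers were raised in a standard environment, had become obese at 12 weeks of age and were 16 weeks old at collection. The slimming mothers spent the last 4 weeks in enriched-environment (EE) cages, labelled as enriched environment-induced maternal slimming, and the control mothers stayed in the normal cage and are labelled as fed a standard diet. The comparison asks whether the mothers' lifestyle before ovulation goes with a different mRNA content of the egg. With 1 library per group there was no replicate check and no test, so each value describes these 2 libraries.

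NLRP proteins carry an N-terminal pyrin domain, a central NACHT domain that binds nucleotide and a C-terminal array of leucine-rich repeats. Some relatives, such as NLRP3, assemble inflammasomes in immune cells. The oocyte members are instead known as maternal products: several take part in the subcortical maternal complex and the cytoplasmic lattices, protein stores of the egg that the early mouse embryo relies on. The Nlrp4 and Nlrp9 genes are products of duplication in rodents, so that their transcripts resemble each other.

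How far the copies resemble each other bears on every count, because the way reads with several matches were handled is not given in the sources used here. Within the Nlrp4 group the coding sequences of the 10 gene pairs were between 77.1% and 93.9% identical over aligned bases, with Nlrp4c and Nlrp4e the closest pair. Within the Nlrp9 group the 3 pairs lay between 82.3% and 87.4%, with Nlrp9a and Nlrp9c closest. The 32 pairs from different groups, Nlrp2 and Nlrp14 included, had no more than 55.8% identity and shared no coding run longer than 18 bases. The longest coding run shared by Nlrp4c and Nlrp4e is shown, because a read from inside it matches both genes equally. It spans 120 bases at the same place of both coding sequences (bases 121 to 240). The third sequence is the aligned stretch of Nlrp4a, in which capitals mark the 13 bases that differ from Nlrp4c (GENCODE vM21, GRCm38).
Nlrp4c, chr7:6060715-6060834, + strand: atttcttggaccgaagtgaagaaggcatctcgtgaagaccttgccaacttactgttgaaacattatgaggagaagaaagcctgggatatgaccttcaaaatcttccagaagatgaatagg
Nlrp4e, chr7:23301402-23301521, + strand: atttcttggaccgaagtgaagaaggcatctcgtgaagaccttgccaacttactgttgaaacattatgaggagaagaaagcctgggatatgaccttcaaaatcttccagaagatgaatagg
Nlrp4a, chr7:26444332-26444451, + strand: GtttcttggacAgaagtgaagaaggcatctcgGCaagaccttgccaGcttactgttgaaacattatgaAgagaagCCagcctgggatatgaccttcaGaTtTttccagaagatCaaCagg

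The same is shown for the Nlrp9 group, where Nlrp9a and Nlrp9b shared a run of 129 bases (bases 589 to 717 of each coding sequence). In the aligned stretch of Nlrp9c, capitals mark the 12 bases that differ from Nlrp9a. Nlrp9a and Nlrp9b, equal here, differed several-fold in level, as their counts show.
Nlrp9a, chr7:26557547-26557675, + strand: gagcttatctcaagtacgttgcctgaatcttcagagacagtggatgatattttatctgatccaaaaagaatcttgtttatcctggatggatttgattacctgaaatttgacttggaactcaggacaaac
Nlrp9b, chr7:20023428-20023556, + strand: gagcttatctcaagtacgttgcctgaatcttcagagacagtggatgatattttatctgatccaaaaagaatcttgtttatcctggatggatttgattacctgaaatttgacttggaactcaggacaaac
Nlrp9c, chr7:26385436-26385564, - strand: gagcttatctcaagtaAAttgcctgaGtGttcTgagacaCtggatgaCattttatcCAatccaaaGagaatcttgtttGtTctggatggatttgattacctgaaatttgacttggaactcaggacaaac

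Such runs are a small part of most of these transcripts. Cutting the longest coding transcript of each gene into all windows of 50 bases, every window of Nlrp14 and of Nlrp4b was found in no other annotated gene on either strand. For Nlrp2 the share of its own windows was 99.2%, for Nlrp4a 96.9% and for Nlrp4f 92.9%. In the Nlrp9 group it was 93.5% for Nlrp9a, 93.8% for Nlrp9b and 95% for Nlrp9c, and the shared windows lay in the other 2 Nlrp9 genes. Nlrp4c had 88.1% of its own. Nlrp4e had the lowest share, 63.1%. Each of the copies Gm16443, Gm8486, Gm8685, Gm8728 and Gm4541 held between 26.3% and 31.0% of all windows of Nlrp4e. None of these copies was found by symbol in the table. Nlrp4c held 8.28% of the windows of Nlrp4e. In the last 1000 bases of the transcript, the end that oligo(dT) priming starts from, the share of Nlrp4e was 95.3%, whereas that of Nlrp9a was 87.2%. With windows of 25 bases Nlrp4e fell to 40.9% and Nlrp4c to 68.1%, and Nlrp14 stayed at 100%.

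**Figure D1:**
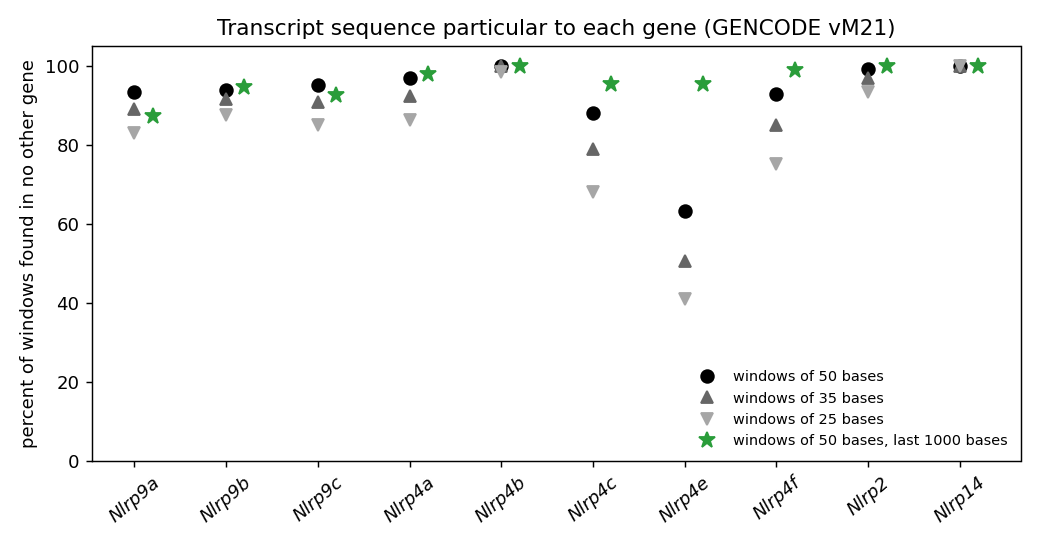
Percent of sequence windows of each gene's longest coding transcript that occur in no other GENCODE vM21 gene, for windows of 50, 35 and 25 bases and, as stars, for windows of 50 bases within the last 1000 bases. Nlrp14 stands at 100% at each window length, and Nlrp4e is lowest at 63.1%, 50.5% and 40.9%.

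All 10 genes had counts in both libraries, which held 20947962 counts (slimming) and 20242289 counts (control). Of the 10, 9 had at least 10 CPM (counts per 1000000 counts of the library) in at least 1 library, the level used here to call a gene expressed, and Nlrp4c was the exception. Together the 10 genes took 43400 counts, or 0.207% of the slimming library, against 42238 counts, or 0.209% of the control library. Nlrp5, the founding oocyte member of the family and a core protein of the subcortical maternal complex, alone had 466 CPM in slimming eggs and 465 CPM in control eggs. By mean CPM over both libraries, Nlrp4f, Nlrp9c and Nlrp9a ranked 403rd, 404th and 446th of the 5714 expressed genes. Nlrp14 ranked 642nd, Nlrp4a 730th and Nlrp4b 1004th. Nlrp9b and Nlrp2 stood near the middle, above 60.1% and 56.4% of the expressed genes, and Nlrp4e was above 41.0%.

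Levels of different genes were compared per kb of exon. Since oligo(dT) priming favours the end of the transcript that it starts from, division by length may not put all genes on an equal scale. A range here runs between the slimming and the control value, 1 library of each group. It holds neither replicate spread nor counting error. Nlrp9a led, with 115 CPM per kb in slimming eggs and 109 CPM per kb in control eggs. Nlrp4f had 104 CPM per kb in slimming eggs and 119 CPM per kb in control eggs, a range that contains that of Nlrp9a. Nlrp14 followed with 73.2 and Nlrp9c with 75.5 CPM per kb in slimming eggs, against 83.3 and 68.9 CPM per kb in control eggs, so this pair could not be ordered either. Below them came Nlrp4a, with 53.2 CPM per kb in slimming eggs and 46.2 CPM per kb in control eggs, and Nlrp4b, with 37.6 in slimming eggs and 41.3 in control eggs, and these ranges do not overlap. Over the longest transcripts they do, with Nlrp4a at 60.5 CPM per kb in slimming eggs and 52.5 CPM per kb in control eggs, and Nlrp4b at 50.8 CPM per kb in slimming eggs and 55.7 CPM per kb in control eggs. Nlrp9b had 14.5 CPM per kb in slimming eggs and 15.7 CPM per kb in control eggs, a range just above that of Nlrp2. Nlrp2 had 13.4 CPM per kb in slimming eggs and 14.1 CPM per kb in control eggs. Nlrp4e had 9.36 CPM per kb in slimming eggs and 7.40 CPM per kb in control eggs. Nlrp4c closed the order at 0.583 CPM per kb in slimming eggs and 0.739 CPM per kb in control eggs. The place of Nlrp9c also depended on the length used: its exons span 5935 bases when retained introns are counted, and over its longest transcript alone it had 139 CPM per kb in slimming eggs and 127 CPM per kb in control eggs, which put it first.

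**Figure D2:**
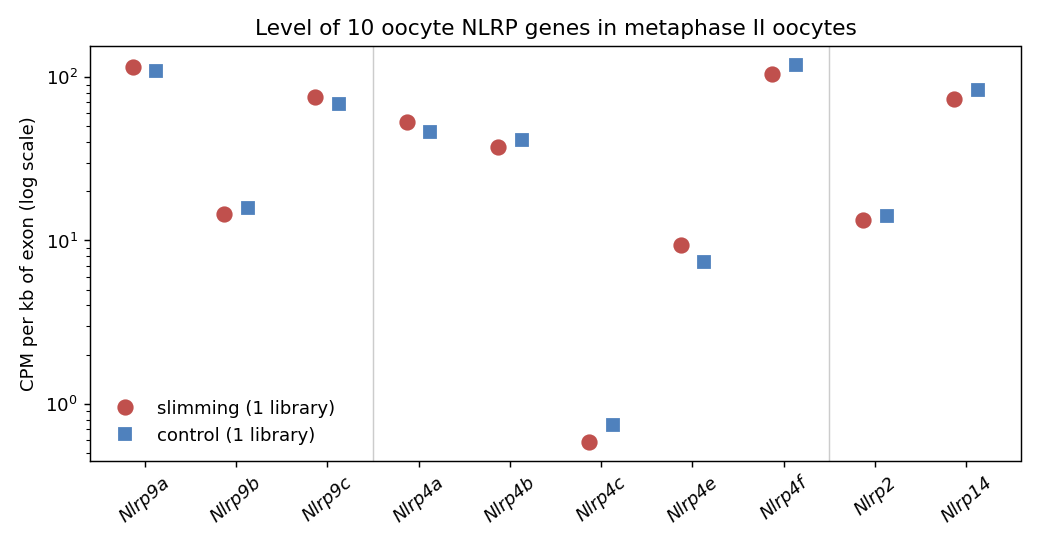
Level of each gene in CPM per kb of exon (log scale), in the slimming library (circles) left of the control library (squares), 1 library per group; vertical lines separate the Nlrp9 group, the Nlrp4 group and the other 2 genes. Nlrp9a, Nlrp9c, Nlrp4f and Nlrp14 lie between 68.9 and 119 CPM per kb, and Nlrp4c lies under 1.

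No member was 2-fold apart between the libraries: 0 of the 9 expressed members reached 2-fold in the upward and 0 in the downward direction, and Nlrp4c was not 2-fold apart either. Across all 5714 expressed genes, 2.73% reached 2-fold upward, 1.94% downward and 4.67% in either direction, and a count of 0 among 9 is near that background. Ratios were taken after TMM scaling, which sets library sizes by a trimmed mean of gene ratios, so that they differ a little from ratios of CPM. The log2 ratio of slimming over control lay between -0.37 and 0.31 over the 10 genes, with 4 above and 6 below 0. Its median was -0.12 over the 10 genes and -0.10 over the 9 expressed ones, against 0.02 over all expressed genes. The median size of the ratio, sign aside, was 0.17 for the 9 expressed members and 0.26 for all expressed genes. Among expressed genes with a mean CPM within 2-fold of each member, that median ran from 0.19 (for Nlrp4f, Nlrp9a and Nlrp9c) to 0.27 (for Nlrp4e). For 4 members the 95% counting interval lay wholly above 0 and for 4 wholly below 0, and it held 0 for Nlrp2 and Nlrp4c. An interval away from 0 was the rule at this depth, with 72.9% of all expressed genes, since it covers counting error only and not the differences between mice, oocytes or amplifications. In the authors' deposited table, 7 of the 10 genes are marked at a p-value of 0.001, where 30.4% of all genes with counts are. Those 18017 genes include the many below 10 CPM, whereas 9 of the 10 members reach it, so these shares are not like for like. The share marked among the 5714 expressed genes was not computed. Nlrp2, Nlrp4c and Nlrp9b are not marked, and that p-value too compares the reads of 2 libraries. Because each library is a pool, fewer oocytes holding the mRNA of a gene and less of that mRNA in each oocyte cannot be told apart.

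**Figure D3:**
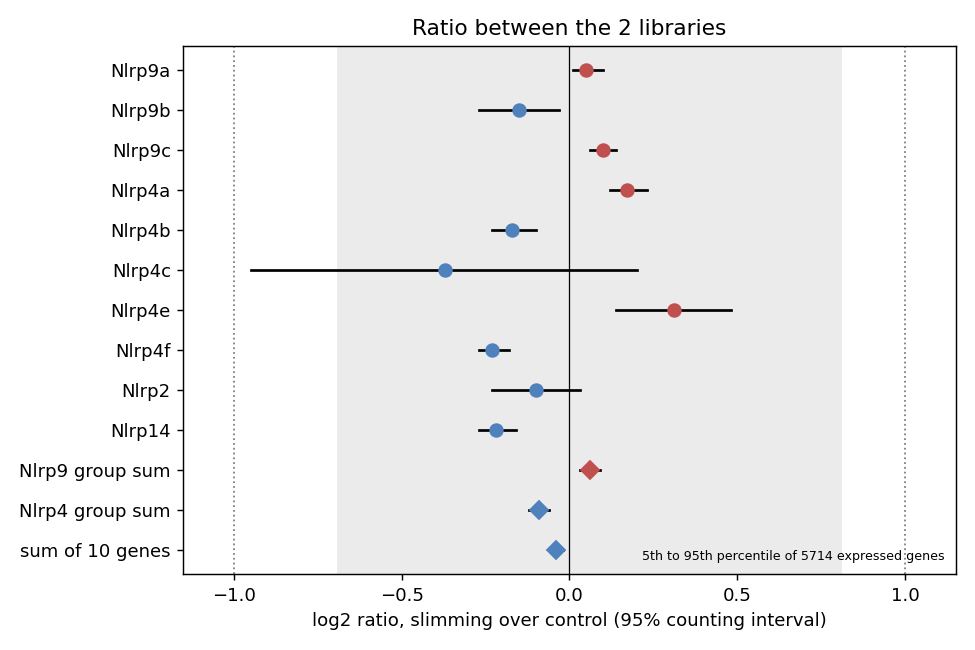
Log2 ratio of slimming over control for each gene and for the summed counts of the Nlrp9 group, the Nlrp4 group and the 10 genes (diamonds); black lines are 95% counting intervals, red marks values above 0 and blue marks values below 0. The grey band runs over the 5th to 95th percentile of all expressed genes, -0.69 to 0.81, and holds each of the 13 values; the dotted lines are at 2-fold.

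Among the genes outside the duplicated groups, Nlrp2 and Nlrp14 were both lower in slimming eggs. Nlrp2 (ENSMUSG00000035177, chromosome 7), a maternal-effect gene of the mouse whose loss in the mother disturbs early development, had 987 counts, or 47.1 CPM, in slimming eggs and 1000 counts, or 49.4 CPM, in control eggs. Its log2 ratio was -0.10 with an interval from -0.23 to 0.03. The 2 values are thus within counting error. Nlrp14 (ENSMUSG00000016626, chromosome 7), which the early mouse embryo also needs from the egg, had 5426 counts, or 259 CPM, in slimming eggs and 5964 counts, or 295 CPM, in control eggs. It was 1.16-fold lower in slimming eggs, at a log2 ratio of -0.22 (interval -0.27 to -0.16). Of the 903 expressed genes with a mean CPM within 2-fold of that of Nlrp14, 46.4% had a larger ratio in one direction or the other. Like Nlrp4b, Nlrp14 shares none of its windows of 50 bases with another gene.

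In the Nlrp9 group, Nlrp9a and Nlrp9c were slightly higher and Nlrp9b slightly lower in slimming eggs. These 3 genes act redundantly in the early mouse embryo, and Nlrp9b is also known as an inflammasome sensor of the mouse gut. Nlrp9a (ENSMUSG00000054102, chromosome 7) had 8425 counts, or 402 CPM, in slimming eggs and 7673 counts, or 379 CPM, in control eggs. Its log2 ratio was 0.05 (interval 0.01 to 0.10), and 84.8% of expressed genes of like level had a larger one. Nlrp9c (ENSMUSG00000040614, chromosome 7) had 9390 counts, or 448 CPM, in slimming eggs and 8281 counts, or 409 CPM, in control eggs, a log2 ratio of 0.10 (0.06 to 0.14). Both abundant copies thus leaned the same way, by 1.04-fold for Nlrp9a and 1.07-fold for Nlrp9c. Nlrp9b (ENSMUSG00000060508, chromosome 7) had 1130 counts, or 53.9 CPM, in slimming eggs and 1184 counts, or 58.5 CPM, in control eggs. It was 1.11-fold lower in slimming eggs, at -0.15 (-0.27 to -0.03). Summed, the group had 904 CPM in slimming eggs and 847 CPM in control eggs, a log2 ratio of 0.06 (0.03 to 0.09). A shared read assigned to any 1 of these copies stays inside the sum. Shared reads that were dropped, or counted for each copy, would still alter the sum, and how they were handled is not given.

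In the Nlrp9 group, Nlrp9a held 44.5% of the group's counts in slimming eggs (exact 95% interval 43.8 to 45.2) and 44.8% in control eggs (44.0 to 45.5). Nlrp9c held 49.6% in slimming eggs and 48.3% in control eggs. Nlrp9b held the small remainder, 5.96% in slimming eggs (5.63 to 6.31) and 6.91% in control eggs (6.53 to 7.30), and these intervals do not overlap. Per kb of exon, Nlrp9a stood 7.97-fold above Nlrp9b in slimming eggs (counting interval 7.49 to 8.49) and 6.93-fold above it in control eggs (6.52 to 7.37). Nlrp9c stood 5.21-fold above Nlrp9b in slimming eggs and 4.39-fold above it in control eggs, or, over the longest transcripts, 8.65-fold in slimming eggs and 7.28-fold in control eggs. Nlrp9a stood 1.53-fold above Nlrp9c in slimming eggs and 1.58-fold above it in control eggs per kb of exon, an order that turned over the longest transcripts, at 0.865 in slimming eggs and 0.893 in control eggs. Of the 3 genes, Nlrp9b shares with Nlrp9a the longest identical run, printed above, and the part of shared reads in their counts was not tested.

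In the Nlrp4 group, Nlrp4a and Nlrp4e were higher and Nlrp4b, Nlrp4c and Nlrp4f were lower in slimming eggs. Nlrp4f (ENSMUSG00000032999), the 1 member on chromosome 13 and a protein tied to the cytoplasmic lattices of the mouse egg, had 8392 counts, or 401 CPM, in slimming eggs and 9288 counts, or 459 CPM, in control eggs. It was 1.17-fold lower in slimming eggs, at a log2 ratio of -0.23 (interval -0.27 to -0.18). Of the 659 expressed genes of like level, 43.4% had a larger ratio, the lowest such share among the 9 expressed members. Nlrp4b (ENSMUSG00000034087, chromosome 7) had 3537 counts, or 169 CPM, in slimming eggs and 3752 counts, or 185 CPM, in control eggs, at -0.17 (-0.23 to -0.10). Both of these lower genes share few or no windows of 50 bases with the members that went the other way. Nlrp4f also shares 4.63% of its windows with Nlrp4g, which was not found by symbol in the table. The part of shared reads in the ratios of Nlrp4f and Nlrp4b was not tested.

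Nlrp4a (ENSMUSG00000040601, chromosome 7) had 5397 counts, or 258 CPM, in slimming eggs and 4527 counts, or 224 CPM, in control eggs. It was 1.13-fold higher in slimming eggs, at a log2 ratio of 0.17 (interval 0.12 to 0.23). Nlrp4e (ENSMUSG00000045693, chromosome 7), which early mouse embryos need for development, had 667 counts, or 31.8 CPM, in slimming eggs and 509 counts, or 25.1 CPM, in control eggs. At 1.24-fold higher, or 0.31 (0.14 to 0.48), it had the highest ratio of the 10 genes. It is also the gene with the least sequence of its own, 63.1% of its windows, and the part of shared reads in its ratio was not tested. Nlrp4c (ENSMUSG00000034690, chromosome 7) had 49 counts, or 2.34 CPM, in slimming eggs and 60 counts, or 2.96 CPM, in control eggs. Its log2 ratio of -0.37 is the lowest of the 10, and its interval, -0.95 to 0.20, is the widest. A difference of that size was not detectable at this depth.

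In the Nlrp4 group, Nlrp4a held 29.9% of the group's counts in slimming eggs (exact 95% interval 29.2 to 30.6) and 25% in control eggs (24.3 to 25.6). Nlrp4f held 46.5% in slimming eggs (45.8 to 47.2) and 51.2% in control eggs (50.5 to 51.9). These intervals do not overlap between the libraries for either gene. Nlrp4b held 19.6% in slimming eggs and 20.7% in control eggs, and Nlrp4e 3.70% in slimming eggs and 2.81% in control eggs. Per kb of exon, Nlrp4f stood 1.95-fold above Nlrp4a in slimming eggs (1.88 to 2.01) and 2.57-fold above it in control eggs (2.48 to 2.66). The opposite differences nearly offset in the sum, which had 861 CPM in slimming eggs and 896 CPM in control eggs, a log2 ratio of -0.09 (-0.12 to -0.06). Nlrp4e and Nlrp4c, the closest pair in sequence, were far apart in level. Per kb, Nlrp4e stood 16.1-fold above Nlrp4c in slimming eggs (12.0 to 21.9) and 10-fold above it in control eggs (7.64 to 13.3). Nlrp4e also shares windows with Gm16443 and other copies not found by symbol in the table. The part of shared reads in the level of Nlrp4e was not tested.

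**Figure D4:**
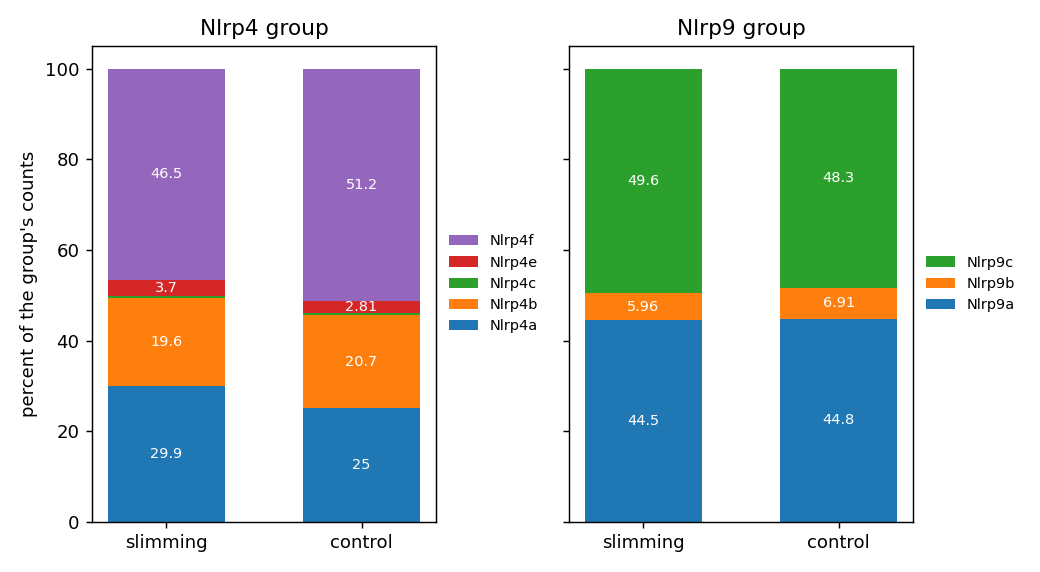
Share of each gene in the summed counts of the Nlrp4 group (left pair of bars) and of the Nlrp9 group (right pair), with the slimming library left of the control library; numbers are percent. Nlrp4a takes 29.9% of its group in slimming eggs and 25% in control eggs, and Nlrp4f takes 46.5% in slimming eggs and 51.2% in control eggs.

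Seen among all genes, the members kept close to the diagonal of equal levels. For each of the 9 expressed members, between 43.4% and 84.8% of expressed genes with a mean CPM within 2-fold had a larger ratio in one direction or the other.

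**Figure D5:**
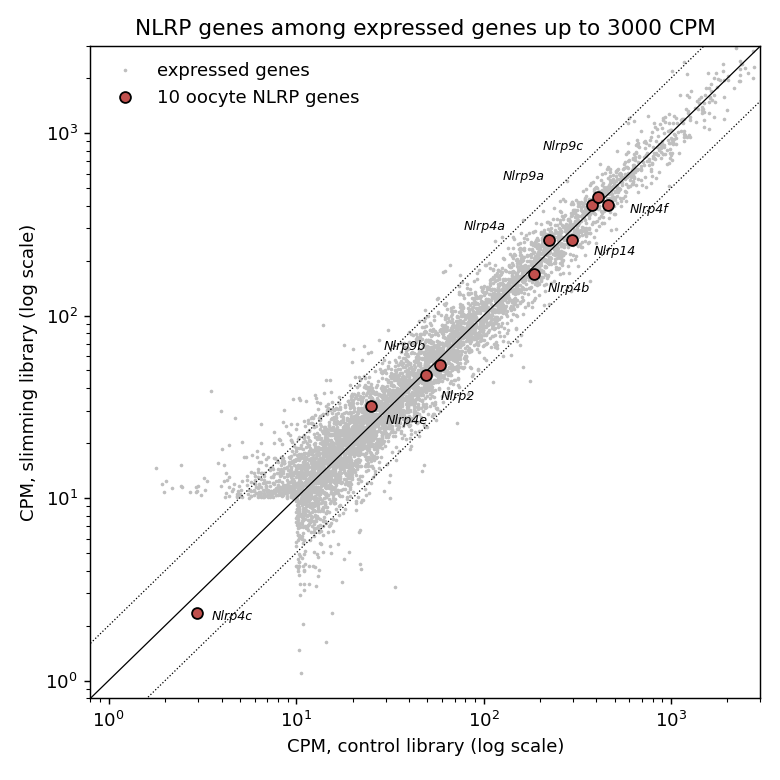
CPM in slimming eggs against CPM in control eggs (both log scales) for expressed genes (grey) and the 10 NLRP genes (red); the solid line marks equal CPM and the dotted lines 2-fold. The 10 genes lie between the dotted lines, and Nlrp4c, at 2.34 CPM in slimming eggs and 2.96 CPM in control eggs, lies below the level at which genes were called expressed.

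On the chromosome, 9 of the 10 genes are on chromosome 7. In the GENCODE vM21 order of coding genes, Nlrp9c, Nlrp4a and Nlrp9a follow each other directly. All of them were higher in slimming eggs, at log2 ratios of 0.10, 0.17 and 0.05, beside a median of 0.02 over all expressed genes. Whether their position has a part in this was not tested. Nlrp4e is the direct neighbour of Nlrp5. Most of the other members stand beside chemosensory receptor genes. Vmn1r65, Vmn1r70 and Vmn1r71, vomeronasal receptors next to Nlrp4c and Nlrp4b, and the olfactory receptors Olfr466 and Olfr716, next to Nlrp4f and Nlrp14, had no count in either library. A count of 0 allows up to 0.143 CPM in slimming eggs and 0.148 CPM in control eggs. Among neighbours with counts, Ceacam20, next to Nlrp9b, had 1715 counts in slimming eggs and 989 counts in control eggs, and Zfp787, next to Nlrp4c, had 245 counts in slimming eggs and 211 counts in control eggs. Exons of the pseudogene Gm18757 lie on the opposite strand of Nlrp2 and those of the pseudogene Gm18877 on the strand of Nlrp9b. With the use of strand not given, reads of these overlapping pairs cannot be assigned with certainty.

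Since copies with like coding sequence differed in level, their upstream sequences are given as well, credited to RefSeq (GRCm38.p6), which held 9 of the 10 genes. The 250 bases before the start of the 3 Nlrp9 genes are printed with 2 motifs in capitals: CCAAT, bound by the factor NF-Y, and CAGGTG, a form of the E-box that the oocyte factor FIGLA can bind, each searched on both strands. Nlrp9a and Nlrp9c are 78.0% identical over these bases. Each holds 3 matches of CCAAT and 1 of CAGGTG. Nlrp9b holds neither, and GENCODE starts its gene model farther upstream than the RefSeq start used here.
Nlrp9a, chr7:26534773-26535022, + strand: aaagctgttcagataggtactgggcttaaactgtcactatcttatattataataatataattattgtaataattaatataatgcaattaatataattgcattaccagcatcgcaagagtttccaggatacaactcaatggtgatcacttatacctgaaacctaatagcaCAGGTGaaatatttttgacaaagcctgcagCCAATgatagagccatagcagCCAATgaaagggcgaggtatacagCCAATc
Nlrp9c, chr7:26403701-26403950, - strand: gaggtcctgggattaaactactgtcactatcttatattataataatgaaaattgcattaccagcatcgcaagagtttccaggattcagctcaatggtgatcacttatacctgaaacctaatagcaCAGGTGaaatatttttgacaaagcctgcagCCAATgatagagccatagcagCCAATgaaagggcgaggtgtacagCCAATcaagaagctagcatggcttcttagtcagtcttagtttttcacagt
Nlrp9b, chr7:20007773-20008022, + strand: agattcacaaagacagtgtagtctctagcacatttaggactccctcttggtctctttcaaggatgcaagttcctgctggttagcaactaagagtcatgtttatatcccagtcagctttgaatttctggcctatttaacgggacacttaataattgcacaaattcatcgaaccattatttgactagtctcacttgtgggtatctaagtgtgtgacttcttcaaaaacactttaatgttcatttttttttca

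Over the 11 upstream sequences of the 9 genes, 8 held CCAAT, as did 33.8% of all 32851 upstream sequences of this length. The 11 are not independent. Nlrp4a and Nlrp4b each enter with 2 RefSeq starts, and other sequences are those of duplicated genes. The 2 sequences of Nlrp4b overlap, are 88.8% identical and both hold CCAAT. Nlrp4f, among the highest per kb, had 0 matches of CCAAT or of the CAGGTG form, and Nlrp4c, the lowest, had 3 CCAAT matches. These matches depend on the RefSeq start used. Whether the stretch of Nlrp4f covers the same place as those of the other Nlrp4 genes was not tested. Nlrp9a and Nlrp9c, with matches of both motifs, stood above Nlrp9b, with none. The part of these motifs in the levels was not tested. CAGGTG was in 2 of the 11 and in 17.2% of all, and the general E-box CANNTG, which includes CAGGTG, was in 9 of the 11 and in 66.2% of all. The TATA box motif TATAAA was in 1 of the 11, that of Nlrp9b, and in 12.4% of all. The match in Nlrp9b is on the opposite strand, 152 bases before the start, so it is a match of the letters only. TAATTG and TAATTA, which the oocyte factor NOBOX can bind, were in 2 and 1 of the 11, and in 7.17% and 4.84% of all. In the Nlrp4 group, a CCAAT match runs straight into an E-box as CCAATCACATG upstream of Nlrp4a (at 1 of its 2 RefSeq starts), Nlrp4b and Nlrp4c. This 11-base sequence was chosen after the upstream sequences had been read, and 0.0335% of all upstream sequences hold it. These belong to 10 genes, of which 3 are the members just named, so the share is not a background apart from them. The 60 bases that end with it are printed here, with CCAAT on either strand and the joint element in capitals. Nlrp4a, Nlrp4b and Nlrp4c hold it alike, and Nlrp4c had 0.583 CPM per kb in slimming eggs and 0.739 CPM per kb in control eggs.
Nlrp4a, chr7:26435515-26435574, + strand: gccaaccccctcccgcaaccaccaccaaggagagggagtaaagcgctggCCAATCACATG
Nlrp4b, chr7:10687690-10687749, + strand: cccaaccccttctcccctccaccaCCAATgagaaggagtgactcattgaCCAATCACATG
Nlrp4c, chr7:6045094-6045153, + strand: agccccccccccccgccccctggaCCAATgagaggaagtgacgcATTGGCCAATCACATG

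Outside the members described here and Nlrp5, other NOD-like receptors were barely present. Of 19 other NLR genes, which include the Nlrp4 copies Nlrp4d and Nlrp4g, 18 were in the table, 9 had counts and 0 were called expressed. Their counts summed to 12.3 CPM in slimming eggs and 10.7 CPM in control eggs. Naip1, a sensor of bacterial proteins with close copies of its own, had 159 counts in slimming eggs and 75 counts in control eggs, a log2 ratio of 1.00 (interval 0.60 to 1.42). Its partner Nlrc4, which forms the inflammasome with the NAIP sensors, had 40 counts in slimming eggs and 67 counts in control eggs, at -0.82 (-1.43 to -0.24). Nod2, a sensor of bacterial cell walls, had 38 counts in slimming eggs and 57 counts in control eggs. Nlrp3 itself had 1 count in slimming eggs and 4 counts in control eggs.

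The partners that an inflammasome needs were mostly without counts. Pycard, the adaptor ASC, Casp1, the protease that matures interleukin-1, and Gsdmd, the pore-forming gasdermin, had no count in either library, and of 15 genes on the list 7 had counts and 3 were expressed. The 3 were chaperones and a co-chaperone that cells use widely, and 0 of them were 2-fold apart. Hsp90ab1 had 581 CPM in slimming eggs and 508 CPM in control eggs, a log2 ratio of 0.16. Hsp90aa1 had 161 CPM in slimming eggs and 190 CPM in control eggs, at -0.27, and Sugt1 had 29.4 CPM in slimming eggs and 32.9 CPM in control eggs, at -0.19. Il1b, the cytokine interleukin-1 beta, is named after its value was seen: it had 0 counts in slimming eggs and 107 counts in control eggs, at least 37.7-fold lower against a floor of 3 counts per library. Its direction is that of the summed immune cell markers, and their part in it was not tested.

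Most genes whose proteins are known to work with the oocyte NLRPs were expressed. Of 10 such genes, 9 were in the table, 8 were expressed, 4 of these were higher and 4 lower in slimming eggs, and 0 were 2-fold apart. Slc8b1, a mitochondrial ion exchanger, had no count in either library. Nlrp5 was level, at a log2 ratio of -0.03 (interval -0.07 to 0.01). Zbed3, a member of the subcortical maternal complex, had 7201 CPM in slimming eggs and 9288 CPM in control eggs, at -0.40. Dnmt1, the maintenance DNA methyltransferase, had 1212 CPM in slimming eggs and 1063 CPM in control eggs, at 0.16. Tle6, another member of the complex, had 1206 CPM in slimming eggs and 910 CPM in control eggs, at 0.37. The largest ratios on the list were those of Uhrf1, the partner that brings Dnmt1 to DNA, and of the kinase Tbk1. Uhrf1 had 66.4 CPM in slimming eggs and 118 CPM in control eggs, at -0.86 (-0.96 to -0.76), and Tbk1 had 6.25 CPM in slimming eggs and 10.2 CPM in control eggs, at -0.74 (-1.07 to -0.42).

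Markers of the egg were high in both libraries. The 8 oocyte markers summed to 103305 CPM in slimming eggs and 104165 CPM in control eggs, led by Gdf9, H1foo and Mos at log2 ratios of -0.06, -0.12 and -0.05. The other 5 were higher in slimming eggs, from 0.25 for Bmp15 and Zar1 to 0.81 for Zp2, 0.94 for Zp1 and 1.03 for Zp3, genes of the egg coat, so that the median over the 8 was 0.25 and 1 of 8, Zp3, was 2-fold higher. The 10 cumulus and granulosa markers summed to 526 CPM in slimming eggs and 518 CPM in control eggs, nearly all from Serpine2, whose CPM exceeds that of each NLRP member in both libraries, and Cyp19a1. Serpine2 had 491 CPM in slimming eggs and 475 CPM in control eggs, and Cyp19a1 had 34.5 CPM in slimming eggs and 39.2 CPM in control eggs, with Inha at 0 counts in slimming eggs and 63 counts in control eggs. Inhba and Tnfaip6 also had 0 counts in slimming eggs only, against 12 counts of Inhba and 8 counts of Tnfaip6 in control eggs, and Fshr, Amh, Foxl2 and Ptx3 had none in either library. The 11 immune markers summed to 9.74 CPM in slimming eggs and 18.0 CPM in control eggs. Cd68, Laptm5 and C1qb had the most counts, 7 of the 11 had 0 counts in slimming eggs (Fcer1g, Tyrobp, C1qa, Csf1r, Adgre1, Lyz2 and Cd74) and 1 of 11, Cd74, in control eggs. Fcer1g had 0 counts in slimming eggs and 62 counts in control eggs, and Tyrobp had 0 counts in slimming eggs and 57 counts in control eggs. The ratios of the NLRP members lay on both sides of 0 beside these markers, and the part of other cells in their ratios was not tested.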

How the data were processed

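Messenger RNA of 2 pools of 9 mouse oocytes was amplified and sequenced on a SOLiD 4 instrument, per the labels' protocols. The submitters' processing notes name build mm9. For the aligner, the counting program, multiple matches and strand, the sources used here give nothing. The authors deposited raw read counts per Ensembl gene, per the file headers, with blank entries read here as 0. The authors also deposited log2 ratios (raw and scaled), a score (z-score), p-values and q-values per gene, with a mark for small p-values, per the file headers. How the authors made these from the counts of the 2 libraries is not stated there, and q-values were not used. No molecular identifiers are named, so intervals and floors cover counting error only.

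Ratios used TMM sizes (factors 1.01 for slimming and 0.989 for control, edgeR 4.0.16 in R 4.3.3) with 0.5 added to each count. Intervals are exact Clopper-Pearson intervals at 95%. CPM used library totals, and a count of 0 was taken to allow 3 counts. With 1 library per group no test was made, and size was judged by a 2-fold rule, whose calculation was checked on simulated counts that held counting error only. Lengths, order, overlaps and shared windows came from GENCODE vM21 (GRCm38), another build than the authors', joined by Ensembl identifier only; a shared window is an exact match of 50 bases on either strand in another gene's transcript. Coding sequences and upstream sequences were aligned globally with Biopython 1.88. Alternatives were other library scalings, added values, filters, lengths, window sizes, the authors' ratio and removal of the median ratio of genes of like length in 20 bins. Python 3.11.15, numpy 2.4.6, scipy 1.17.1, pandas 2.3.3 and matplotlib 3.10.9 were used.

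The members, the lists and the thresholds were chosen with earlier results of these data known. All 10 members and Nlrp5 are named. From each other list the 3 genes with the highest mean CPM are named and, among expressed ones, the 2 with the largest ratio; from marker lists the 3 with the highest mean CPM and those at 0 in a library. Neighbours and copies were named from the annotation, and Il1b and other genes outside the rule after their values were seen.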

Additional observations from a re-analysis of the deposited data

How the results depend on the processing

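The 10 gene ratios and the 3 sums were recomputed in 75 ways in all, by scaling to the total count or to the median ratio, by adding 1 or nothing to the counts, on the authors' deposited scaled ratio (for single genes) and with the length trend removed. No value away from 0 by its counting interval turned its direction, and the largest shift was 0.04 on the log2 scale. Scaling by total count moved the summed Nlrp4 group to -0.06, the summed Nlrp9 group to 0.10 and the sum of the 10 genes to -0.01, at or beyond the edge of their counting intervals. The number of members 2-fold apart was 0 under each of the 6 alternatives run. The share of all genes at least 2-fold apart was 18.4% with genes from 1 CPM (11010 genes) and 38.6% with genes from 1 count (18017 genes), and with either limit all 10 members counted as expressed. Depth limits Nlrp4c, at 49 counts in the slimming and 60 counts in the control library. No paired analysis was possible because each group is 1 library.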

Other observations

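Nlrp5-ps, an annotated pseudogene copy of Nlrp5 on chromosome 7 whose annotation is tagged as an overlapping locus, was singled out after its value was seen. It had 71 counts, or 3.39 CPM, in the slimming library and 212 counts, or 10.5 CPM, in the control library. It was thus 3.14-fold lower in the slimming library (log2 ratio -1.65, interval -2.07 to -1.26), while Nlrp5, with which it shares 8.6% of the 50-base windows of Nlrp5, was level at -0.03. The pseudogene Nlrp4d, which shares 1.49% of the windows of Nlrp4c, had 7 counts in the slimming and 9 counts in the control library.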
